A study of Mus musculus with 12 samples.

Results

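The interferon response genes described here are 41 mouse genes that interferons switch on, from the transcription factors of the pathway to its RNA sensors, antiviral effectors, GTPases and antigen processing genes. They were chosen by symbol, and all 41 had counts in a table of 15754 genes. RNA had been sequenced from white adipocytes grown out of the stromal vascular cells of epididymal fat, the part of the tissue that is left when the fat cells are removed. The donors were wild-type male C57BL/6 mice aged 8 weeks on chow. Cultures were induced with IBMX (250 µM), dexamethasone (1 µM), insulin (850 nM) and rosiglitazone (1 µM), then received a negative control, a let-7d-5p mimic or a let-7e-5p mimic by reverse transfection with Lipofectamine RNAiMAX on day 4, and were harvested on day 7. A mimic is a synthetic small RNA that acts as the mature microRNA. The control cells were thus also transfected, and no untransfected library is analysed here. Each of the 3 groups had 4 libraries. The sample identifiers fall into 2 series, the first with replicates 1 and 2 of every group and the second with replicates 3 and 4. They are called series 1 and series 2 here. Their labels name no batch, day or run that would separate them.

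Interferons bind receptors on the cell surface, whose JAK kinases activate STAT factors. With type I and type III interferons, STAT2 and IRF9 act in a complex that binds the interferon-stimulated response element (ISRE) in the promoters of its target genes. Interferon gamma acts through another element, the gamma-activated site (GAS). Cells can also start this response themselves, since RIG-I, MDA5 and other sensors recognise foreign or double-stranded RNA and lead to production of interferon, and RNA delivered by transfection can be such a trigger. In fat tissue both adipocytes and resident immune cells can respond to interferon.

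The mature mimic sequences are shown because both microRNAs share the seed, bases 2 to 8 from the 5′ end, which is in capitals. They are 22 bases long and come from RefSeq (GRCm38.p6).
let-7d-5p: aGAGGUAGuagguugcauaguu
let-7e-5p: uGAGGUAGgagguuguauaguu
Counted from 1 at the 5′ end, with the let-7d base first, they differ by A1U, U9G and C16U. The seed GAGGUAG is identical.

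Promoters of the members were searched for the ISRE and the GAS as a description. A RefSeq promoter window, 250 bases before to 50 bases after the start of the gene, was found for 33 of the 41 genes (GRCm38.p6), and 8 had no entry (Iigp1, Parp9, Rtp4, Parp14, Usp18, Dhx58, Zbp1 and Mx1). The core of the ISRE was searched as GAAANNGAAA on both strands, where it reads TTTCNNTTTC on the other, with overlapping matches kept. It was present in 15 of the 33 genes (45.5%), against 1079 of all 27025 genes with a window (3.99%). A gene counts here if any of its windows holds a match, since some genes have more than 1 start and window. By window, the share was 3.44% of all 32851 windows of this length. The GAS, TTCNNNGAA, which reads the same on both strands, was present in 9 of 33 (27.3%). Its share was 9.55% of all genes and 8.30% of all windows. The members were chosen as genes that interferons switch on. Higher shares than in all genes thus follow from that choice and are no result of these libraries. Among the members with an ISRE core, the 5 with the smallest p in the comparison of the control libraries of the 2 series are printed, with every ISRE core in capitals.
Irgm1 (chr11:48871371-48871670, minus strand): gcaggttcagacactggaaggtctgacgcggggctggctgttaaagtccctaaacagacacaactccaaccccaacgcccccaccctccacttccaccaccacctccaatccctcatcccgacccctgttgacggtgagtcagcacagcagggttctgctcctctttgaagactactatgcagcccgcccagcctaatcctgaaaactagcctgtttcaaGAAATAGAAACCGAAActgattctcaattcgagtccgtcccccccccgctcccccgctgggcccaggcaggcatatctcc
Trim30a (chr7:104465144-104465443, minus strand): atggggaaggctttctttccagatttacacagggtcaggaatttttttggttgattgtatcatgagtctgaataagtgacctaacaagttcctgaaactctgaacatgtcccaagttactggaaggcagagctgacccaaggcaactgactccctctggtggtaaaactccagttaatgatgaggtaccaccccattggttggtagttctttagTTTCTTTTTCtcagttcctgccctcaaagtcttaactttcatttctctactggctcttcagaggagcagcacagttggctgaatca
Isg15 (chr4:156200769-156201068, minus strand): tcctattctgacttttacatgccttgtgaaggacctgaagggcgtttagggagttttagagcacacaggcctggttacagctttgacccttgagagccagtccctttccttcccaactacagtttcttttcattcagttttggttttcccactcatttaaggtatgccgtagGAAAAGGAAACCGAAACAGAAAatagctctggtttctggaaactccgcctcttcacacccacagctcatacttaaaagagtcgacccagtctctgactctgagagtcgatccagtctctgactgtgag
Bst2 (chr8:71537423-71537722, minus strand): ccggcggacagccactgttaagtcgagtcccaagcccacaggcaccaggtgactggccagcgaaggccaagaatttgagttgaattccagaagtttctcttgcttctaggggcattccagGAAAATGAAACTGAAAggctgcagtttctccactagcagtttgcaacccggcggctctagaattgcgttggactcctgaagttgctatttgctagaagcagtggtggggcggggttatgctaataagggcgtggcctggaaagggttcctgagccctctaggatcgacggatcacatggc
Ifit1 (chr19:34640639-34640938, plus strand): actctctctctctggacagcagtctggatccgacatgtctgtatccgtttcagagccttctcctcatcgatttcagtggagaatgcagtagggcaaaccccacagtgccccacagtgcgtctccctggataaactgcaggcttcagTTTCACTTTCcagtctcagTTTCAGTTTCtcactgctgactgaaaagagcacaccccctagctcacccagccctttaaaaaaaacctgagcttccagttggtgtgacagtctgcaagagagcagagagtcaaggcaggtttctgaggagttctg
In Isg15, the core was matched 3 times in overlap, first at base -78 relative to the gene start. Irgm1 had 2 overlapping matches from -30 and Bst2 had 2 from -130. Trim30a had 1 match at -36 in the window printed and another in a second window, and Ifit1 had 2 separate matches at -104 and -85. A match of letters is a description and not a measured binding site.

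Total counts ran from 15071299 in control 2 to 33396316 in let-7e 3. Levels are given as CPM, counts scaled to a common library total, after TMM scaling, and differences as log2 fold changes with their standard error (SE) from edgeR's quasi-likelihood test. A gene was called where its p, adjusted over all 15754 genes after Benjamini and Hochberg, was under 0.05. The labels do not say whether replicates came from separate cultures or animals. The p-values therefore rest on the spread among these libraries alone, and that spread may be technical. The adipocyte markers were present in every library, with 9 of 10 listed genes in the table and a summed level from 3749 to 17304 CPM. Lymphocyte markers, 9 genes, and the 11 interferon genes listed as ligands were not analysed here, since none was in the table used. Plasmacytoid dendritic cells could not be followed by their own markers, because of 4 listed genes only Tcf4 and the member Bst2 were in the table.

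Per kilobase of exon, the members differed widely in level. In the series 1 controls the highest level was that of Lgals3bp, a secreted glycoprotein that binds galectin-3, at 337 CPM per kilobase. It was followed by Bst2 (tetherin, which holds budding virus at the cell surface) at 169 and by Isg15 at 93.6. In the series 2 controls Bst2 was the highest. Mx1 was the lowest in both, at 0.280 CPM per kilobase in the series 1 controls. Its lowest library held 6 counts, the fewest of any member, and C57BL/6 mice carry a defective Mx1 allele.

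The control libraries of the 2 series differed strongly in these genes. Most of the antiviral effectors, the ISG15 genes and the interferon-inducible GTPases were higher in series 2, with the largest differences in Irgm1, Ifit1, Ifit3, Ifi44 and Isg15, each about 5-fold. Of the 41 members, 35 were higher in the series 2 controls and 2 were lower, Lgals3bp and Trim25, by edgeR at an adjusted p under 0.05. Over all genes 35.2% were higher and 33.8% were lower, so 10876 of 15754 genes (69%) were called in this comparison. The median log2 fold change of the members was 1.06, and that of all genes was 0.04. The number called stayed between 35 and 37 when any control library was left out. All 6 series 2 libraries lay above all 6 series 1 libraries for 24 members (31.5% of all genes did so), and below them for 3 (30.6%).

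Cell type markers were followed in the same comparison, where 35.2% of all genes were called higher and 33.8% lower. Macrophage markers, 17 of 18 listed genes in the table, had a summed level of 374 to 376 CPM in the series 1 controls and of 31.9 to 43.7 in the series 2 controls. All 17 were called lower in the series 2 controls, with a median log2 fold change of -4.06, and Itgam was at 0 in 1 library, control 4. Adipocyte markers were lower too, 9 of 9, with a median of -2.39. Most markers of preadipocytes and fibroblasts were higher in the series 2 controls. Of 7, 5 were called higher there (Dpp4, Cd34, Ly6a, Pi16 and Thy1) and 1 lower (Dlk1), while Pdgfra was not called. Their summed level was 709.9 to 730.4 CPM in the series 1 controls and 965.9 to 1296 in those of series 2. That sum includes Ly6a, which interferon also induces, at 164 to 804 CPM over all libraries, and Pdgfra at 374 to 557. Of 6 endothelial markers 2 were higher and 3 lower, at 228 to 243 against 162 to 164 CPM summed. Of 4 mesothelial markers 1 was higher and 2 were lower, at 86.3 to 92.9 against 78.5 to 80.4. Both lists are too short to set such counts apart from the shares of all genes. Itgam was the marker of these 5 lists that was at 0 in any library. Fewer cells of a type and less RNA per cell cannot be told apart in bulk RNA. The part of these markers in the difference of the interferon response genes was not tested. Whatever else differed between the series cannot be told apart from it either.

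**Figure D1:**
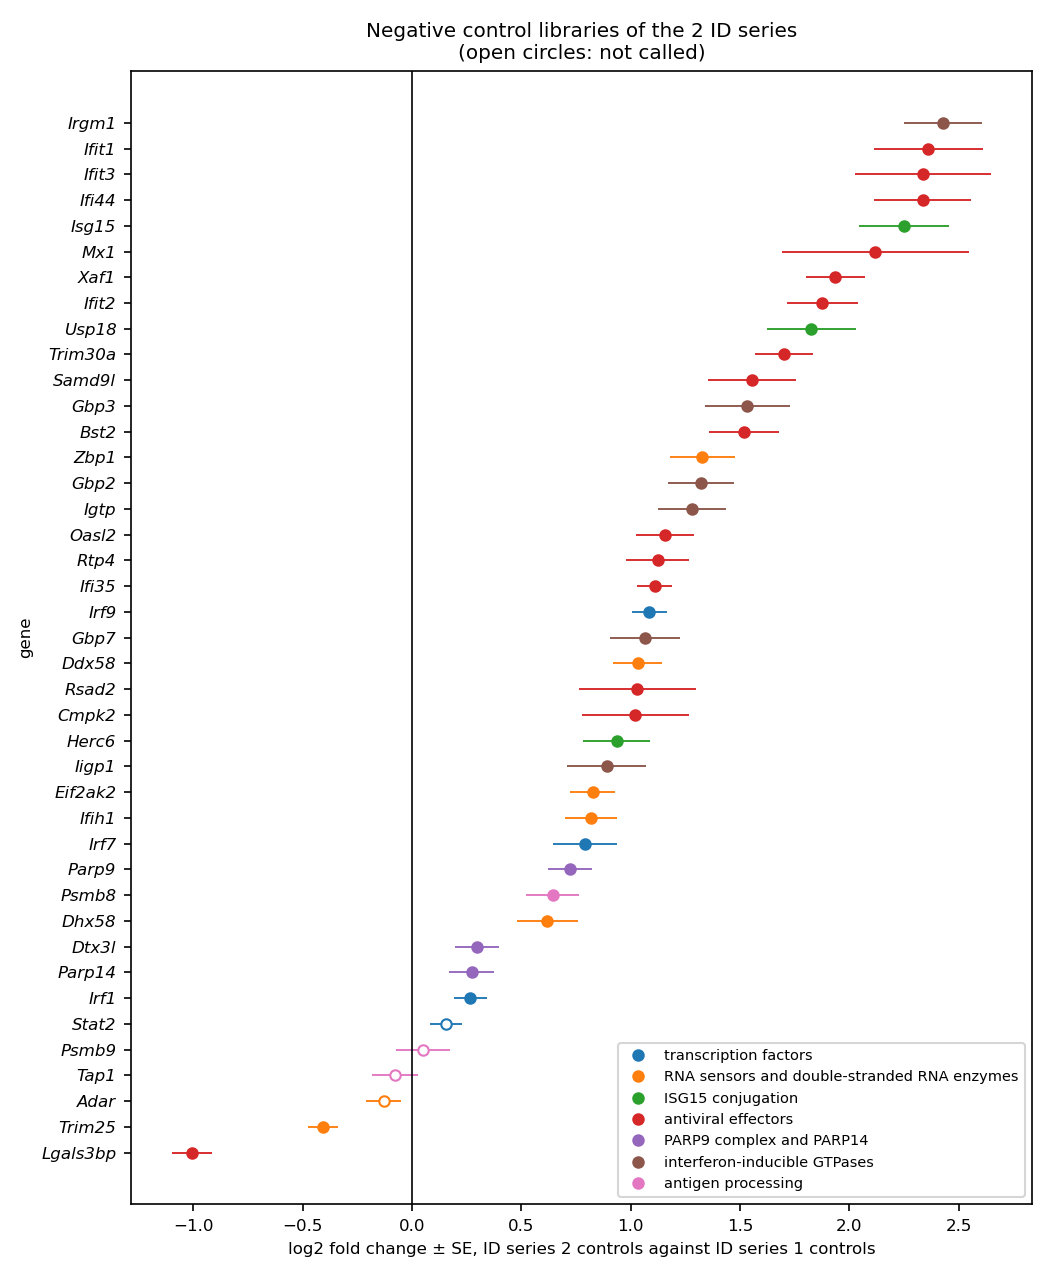
Log2 fold change ± SE of the 41 genes (rows) between the control libraries of series 2 and series 1, 2 libraries each, coloured by role, with open circles for genes not called by edgeR at an adjusted p under 0.05. Irgm1 is highest at 2.43 and Lgals3bp is lowest at -1.01, and 37 of the 41 genes lie above 0.

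Because the level was set so differently in the 2 series, the mimics were compared with the controls within each series. In series 1 the members called with the mimics were nearly all higher. With let-7d 16 of the 41 members were called higher (4.59% of all genes) and 1 was called lower, Lgals3bp (6.28%). With let-7e 21 were called higher (3.1%) and none lower (4.02%); 1 was lower at an unadjusted p under 0.05, and DESeq2 called 1 lower and limma-voom 0. The median log2 fold change of the members was 0.42 with let-7d and 0.53 with let-7e, against 0.00 and -0.01 over all genes. Both let-7d libraries lay above both controls for 29 members (27% of all genes) and below for 1 (27.6%). Both let-7e libraries lay above both controls for 38 members (24.8%) and below for 1 (27%). The 2 mimics share these control libraries, so their results are not independent of each other.

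In series 2 the direction was not the same. With let-7d no member was called higher (3.29% of all genes) and 7 were called lower (5.26%). At an unadjusted p under 0.05 edgeR had 0 higher and 18 lower, and DESeq2 and limma-voom also called 0 higher. The shares of all genes given here are for adjusted p and do not apply to the unadjusted counts. The 7 were Adar, Oasl2, Stat2, Irgm1, Trim25, Lgals3bp and Dtx3l. With let-7e none was called higher (0.914%) and 1 was called lower, again Lgals3bp (1.56%). At an unadjusted p under 0.05 there were 1 higher and 2 lower, and DESeq2 and limma-voom called 0 higher. The median log2 fold change was -0.30 with let-7d and -0.04 with let-7e, against -0.01 and 0.00 over all genes. Both let-7d libraries lay below both controls for 25 members (27.6% of all genes) and above for 1 (22.8%). Both let-7e libraries lay below both controls for 5 members (21.7%) and above for 1 (20.4%), Irf1.

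These counts changed with the libraries used, and leaving 1 out leaves a single library in its group and series. In series 1 the counts of both mimics rose without control 1 and fell without the libraries named next. In series 1 the number of members called with let-7d, 17 in all (10.9% of all genes), was 6 without control 2 and 4 without let-7d 2. With let-7e the number called, 21 (7.12%), was 3 without control 2, 4 without let-7e 1 and 2 without let-7e 2. In series 2 the 7 members called with let-7d (8.56%) became 4 without control 3, 3 without control 4 and 2 without let-7d 3. The single member called with let-7e (2.48%) was lost without control 3 or let-7e 4. Medians kept their sign for let-7d in both series and for let-7e in series 1 whichever of the compared libraries was left out. They were at 0.23 to 0.57, -0.37 to -0.15 and 0.36 to 0.67. Control 2 had the smallest library and the lowest level of all 12 libraries for 34 of the 41 members.

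**Figure D2:**
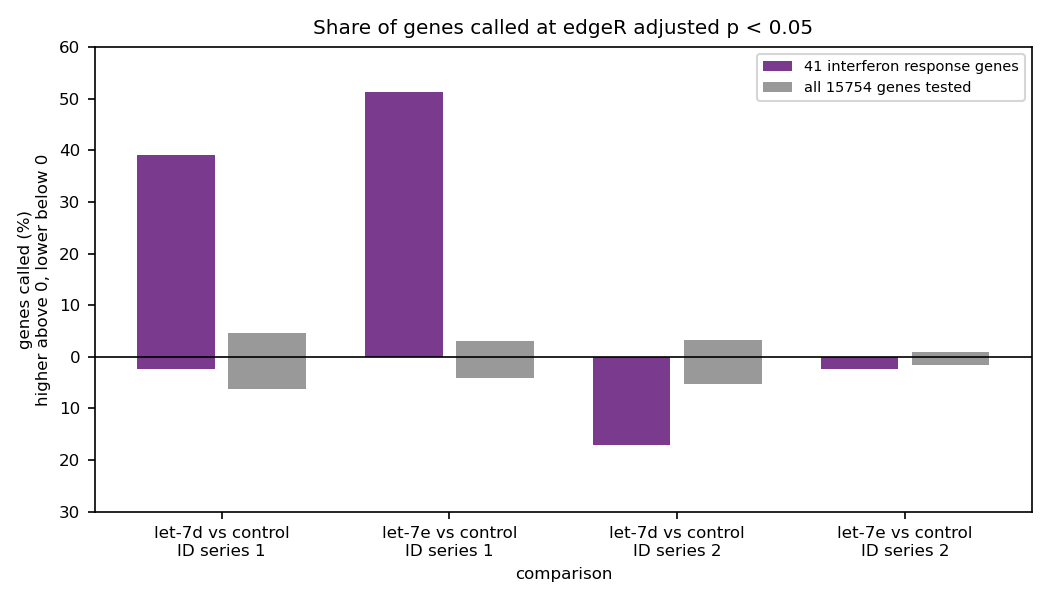
Share of genes called higher (bars above 0) and lower (bars below 0) by edgeR at an adjusted p under 0.05, as a percent of the 41 interferon response genes and of all 15754 genes, for each mimic against control in each series. In series 1 the bars of the interferon response genes above 0 hold 16 and 21 genes. Below 0, let-7d has 1 gene there, Lgals3bp. In series 2 their bars lie below 0 only, with 7 genes for let-7d and 1 gene, again Lgals3bp, for let-7e.

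**Figure D3:**
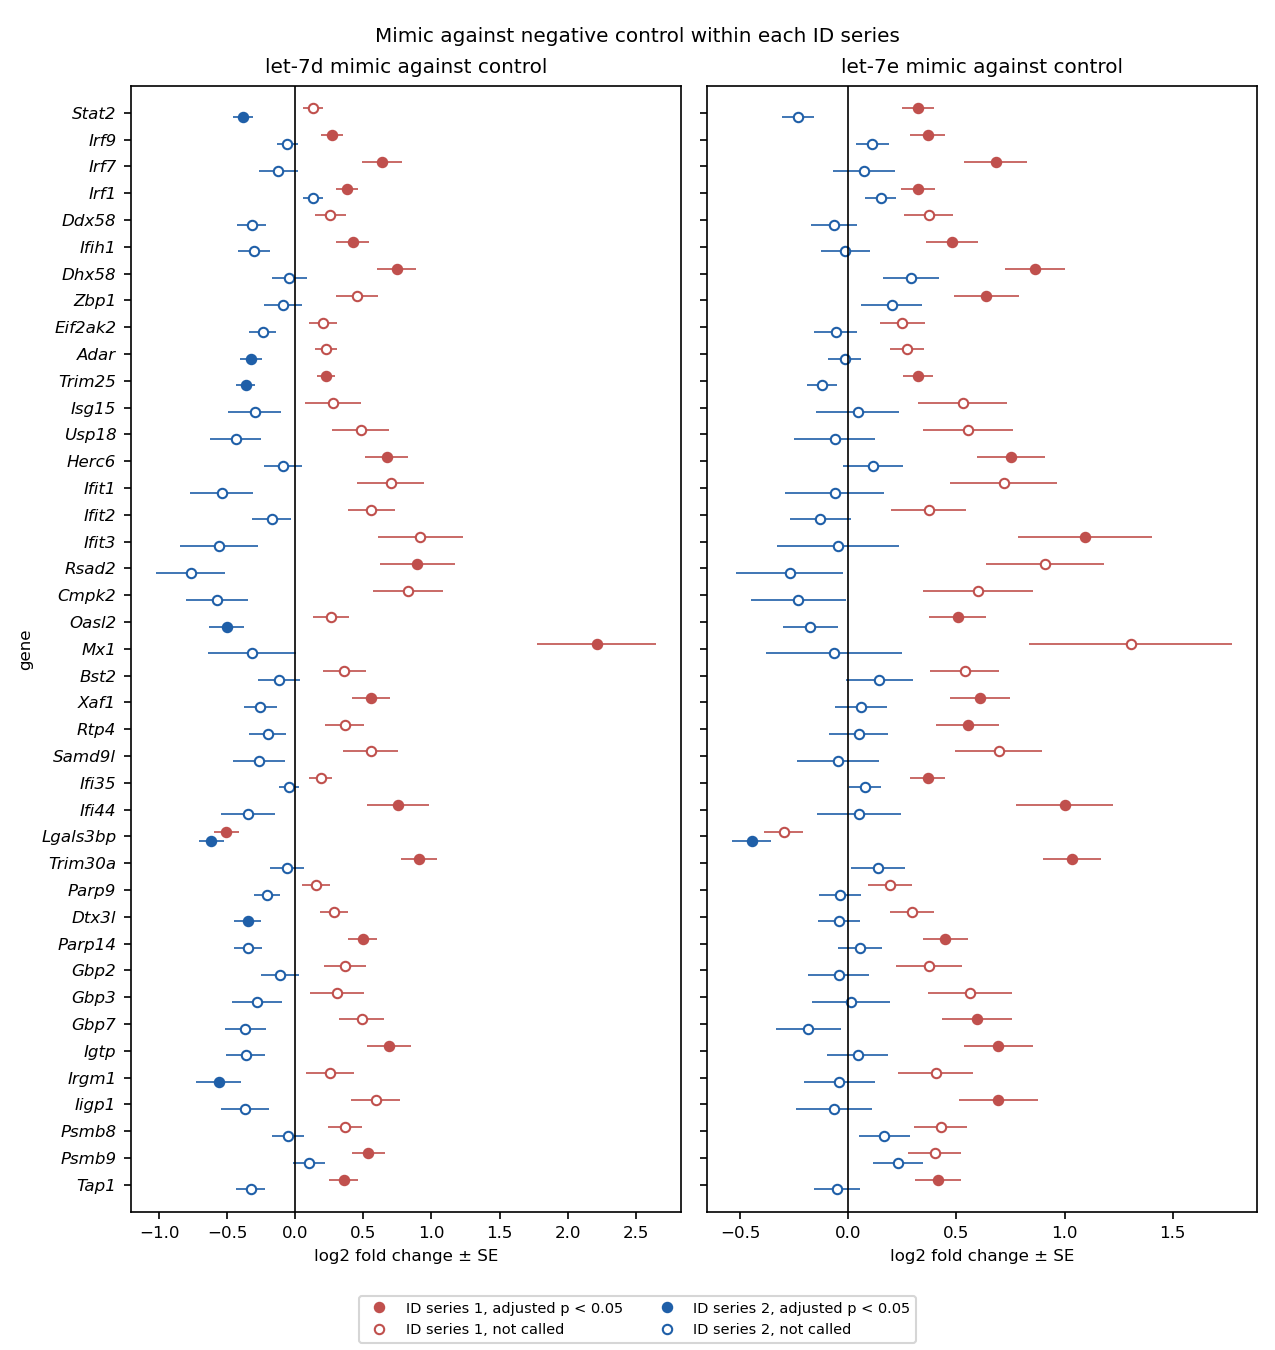
Log2 fold change ± SE of each gene against the control of its own series, for let-7d (left) and let-7e (right), with series 1 in red, series 2 in blue and filled points for genes called by edgeR at an adjusted p under 0.05. Series 1 lies to the right of series 2 for all 41 genes with each mimic, and Lgals3bp lies below 0 in all 4 comparisons.

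Among the transcription factors, Irf7, which drives the genes of type I interferon, had the largest changes in series 1. Irf7 in series 1 stood at 229 and 212 CPM in controls 1 and 2, 284 and 401 in let-7d 1 and 2, and 338 and 371 in let-7e 1 and 2. All 4 mimic libraries lay above both controls. The log2 fold change was 0.63 ± 0.15 with let-7d (edgeR adjusted p = 0.0129) and 0.68 ± 0.15 with let-7e (0.0117). In series 2 Irf7 stood at 429 and 336 CPM in controls 3 and 4, 359.8 and 343 in let-7d 3 and 4, and 448 and 356 in let-7e 3 and 4, and the groups overlapped. The log2 fold changes there were -0.12 and 0.07, neither called. The series 1 call with let-7d was lost by edgeR without control 2 (0.0745) or let-7d 2 (0.219), and that with let-7e without control 2 (0.0671), let-7e 1 (0.0582) or let-7e 2 (0.109), with adjusted p in parentheses.

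Irf9, the subunit that gives the STAT complex its DNA contact, stood in series 1 at 64.8 and 56.4 CPM in controls 1 and 2, 71.1 and 75.1 in let-7d 1 and 2, and 78.6 and 78.2 in let-7e 1 and 2. For Irf9 the series 2 levels were 135 and 123 CPM in controls 3 and 4, 121 and 127 in let-7d 3 and 4, and 146 and 133 in let-7e 3 and 4. All series 2 libraries were above all series 1 libraries, with a log2 fold change of 1.08 ± 0.08 in the controls (edgeR adjusted p = 1.58e-08). Within series 1 both mimics were above the controls, by 0.27 with let-7d (edgeR adjusted p = 0.0489) and 0.37 with let-7e (0.0138) on the log2 scale. Within series 2 the groups overlapped. Without 1 library, the let-7d call in series 1 was lost for control 2 (0.277), let-7d 1 (0.115) or let-7d 2 (0.289), and the let-7e call for control 2 (0.0799), let-7e 1 (0.105) or let-7e 2 (0.089), each left out in turn (edgeR adjusted p in parentheses). The let-7d call was also lost with RLE scaling (0.0621), DESeq2 (0.0661) and limma-voom (0.0536).

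Irf1, a factor that interferon gamma induces early, was above the controls in all 8 mimic libraries of their own series. Irf1 in series 1 stood at 29.4 and 28.6 CPM in controls 1 and 2, 38.5 and 37.1 in let-7d 1 and 2, and 36.9 and 35.7 in let-7e 1 and 2. Irf1 levels in series 2 were 35.6 and 34.3 CPM in controls 3 and 4, 36.0 and 40.5 in let-7d 3 and 4, and 39.0 and 38.6 in let-7e 3 and 4. The groups did not overlap in either series. The log2 fold changes in series 1 were 0.38 ± 0.08 with let-7d (edgeR adjusted p = 0.00654) and 0.32 ± 0.08 with let-7e (0.0205). In series 2 they were 0.13 and 0.15, which did not pass the test. The series 1 calls were lost without let-7d 1 (0.0611) for let-7d, and without control 1 (0.0588), control 2 (0.0718), let-7e 1 (0.166) or let-7e 2 (0.0924) for let-7e (edgeR adjusted p in parentheses).

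Stat2, a subunit of the complex with IRF9, stood at 97.9 and 91.3 CPM in controls 1 and 2, 95.9 and 111 in let-7d 1 and 2, and 116 and 121 in let-7e 1 and 2. Stat2 in series 2 stood at 106 and 105 CPM in controls 3 and 4, 82.6 and 79.3 in let-7d 3 and 4, and 92.3 and 87.0 in let-7e 3 and 4, so that both mimics lay below both controls there. With let-7d it fell by 0.38 ± 0.07 on the log2 scale in series 2 (edgeR adjusted p = 0.00613), and this call held under all 10 alternatives tried. With let-7e in series 2 the value was -0.23 ± 0.07, not called (edgeR adjusted p = 0.12). In series 1 the let-7e libraries lay above the controls, by 0.32 (edgeR adjusted p = 0.0168), a call lost without control 2 (0.0889), let-7e 1 (0.0848) or let-7e 2 (0.148). Its level did not pass the test between the controls of the 2 series.

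Of the 7 sensors and double-stranded RNA enzymes, 3 were called higher in series 1 with let-7d (4.59% of all genes) and 4 with let-7e (3.1%), and 2 were called lower in series 2 with let-7d (5.26%). Dhx58, which encodes LGP2, a regulator of the RIG-I family, had the largest changes. Dhx58 in series 1 stood at 21.5 and 19.2 CPM in controls 1 and 2, 29.5 and 38.5 in let-7d 1 and 2, and 36.9 and 37.5 in let-7e 1 and 2. Both mimics lay above both controls there, with log2 fold changes of 0.74 ± 0.14 for let-7d (edgeR adjusted p = 0.00409) and 0.86 ± 0.14 for let-7e (0.00202). The let-7e call held under all 10 alternatives, and the let-7d call was lost without let-7d 2 (0.0944). In series 2 Dhx58 stood at 34.9 and 27.9 CPM in controls 3 and 4, 30.8 and 30.2 in let-7d 3 and 4, and 42.6 and 34.1 in let-7e 3 and 4. The groups overlapped there, and neither mimic was called.

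Zbp1, which binds nucleic acid in the Z form, stood in series 1 at 73.4 and 68.0 CPM in controls 1 and 2, 80.5 and 112 in let-7d 1 and 2, and 105 and 115 in let-7e 1 and 2. For Zbp1 the series 2 levels were 194 and 161 CPM in controls 3 and 4, 172 and 162 in let-7d 3 and 4, and 234 and 174 in let-7e 3 and 4. The 2 series did not overlap. Within series 1 all mimic libraries were above the controls, and the let-7e difference of 0.64 ± 0.15 passed the test (edgeR adjusted p = 0.0192) while that of let-7d, 0.45 ± 0.15, did not (0.0697). The difference between the mimics was not called. The let-7e call was lost without control 1 (0.0543), control 2 (0.0919), let-7e 1 (0.0811) or let-7e 2 (0.146) (edgeR adjusted p in parentheses).

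Trim25, a ubiquitin ligase that activates RIG-I, went in opposite directions in the 2 series with let-7d. Trim25 in series 1 stood at 118 and 123 CPM in controls 1 and 2, 141 and 141 in let-7d 1 and 2, and 149 and 152 in let-7e 1 and 2. Trim25 levels in series 2 were 90.0 and 91.8 CPM in controls 3 and 4, 65.9 and 75.4 in let-7d 3 and 4, and 84.3 and 82.8 in let-7e 3 and 4. All mimic libraries were above their controls in series 1 and below them in series 2, and every series 2 library was below every series 1 library. With let-7d the log2 fold change was 0.23 ± 0.07 in series 1 (edgeR adjusted p = 0.0454) and -0.36 ± 0.07 in series 2 (0.00514). With let-7e it was 0.32 ± 0.07 in series 1 (edgeR adjusted p = 0.0105) and -0.12 ± 0.07 in series 2, not called. The series 1 calls were lost without control 1 (0.187), control 2 (0.0695), let-7d 1 (0.165) or let-7d 2 (0.217) for let-7d and control 1 (0.0572), let-7e 1 (0.0828) or let-7e 2 (0.0923) for let-7e, and the series 2 call without let-7d 3 (0.0878) (edgeR adjusted p in parentheses). The let-7d call in series 1 was also lost with RLE scaling (0.0638) and DESeq2 (0.0777).

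Adar, which turns adenosine into inosine in double-stranded RNA, stood at 63.7 and 59.7 CPM in controls 1 and 2, 67.1 and 77.3 in let-7d 1 and 2, and 72.9 and 76.5 in let-7e 1 and 2. For Adar the series 2 levels were 55.8 and 57.3 CPM in controls 3 and 4, 42.6 and 47.7 in let-7d 3 and 4, and 55.3 and 56.5 in let-7e 3 and 4. Both let-7d libraries of series 2 lay below both controls, and Adar fell by 0.32 ± 0.08 on the log2 scale (edgeR adjusted p = 0.0211). That call was lost without control 4 (0.12) or let-7d 3 (0.219). Compared alone, the 6 libraries of series 2 did not give the Adar call (0.0515). Ifih1, which encodes MDA5, was the other sensor called in series 1, at 0.42 with let-7d (edgeR adjusted p = 0.039) and 0.48 with let-7e (0.0279). The let-7d call of Ifih1 was lost with limma-voom (0.052). Both Ifih1 calls were lost without control 2 (0.202 and 0.142), that with let-7d also without let-7d 2 (0.461), and that with let-7e without let-7e 1 (0.127) or let-7e 2 (0.153). Ddx58, which encodes RIG-I, had 0.26 and 0.37 in series 1, and Eif2ak2, which encodes the kinase PKR, had 0.20 and 0.25, none called. Both were higher in the series 2 controls, by 1.03 and 0.83 (edgeR adjusted p = 8.97e-07 and 3.55e-06).

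All 3 genes of ISG15 conjugation were higher in the series 2 controls (35.2% of all genes). Isg15, the ubiquitin-like modifier itself, stood in series 1 at 85.9 and 55.6 CPM in controls 1 and 2, 68.9 and 103 in let-7d 1 and 2, and 95.7 and 110.2 in let-7e 1 and 2. Isg15 in series 2 stood at 359.8 and 319 CPM in controls 3 and 4, 276 and 276 in let-7d 3 and 4, and 416 and 283 in let-7e 3 and 4. The series did not overlap, and the control difference was 2.25 ± 0.21 on the log2 scale, or 4.76-fold (edgeR adjusted p = 1.63e-07). No mimic effect on Isg15 was called, and the largest was 0.53 ± 0.20 with let-7e in series 1 (edgeR adjusted p = 0.143).

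Herc6, a ligase that attaches ISG15 in the mouse, was the member of this group that was called with the mimics. Its levels in series 1 were 19.1 and 14.2 CPM in controls 1 and 2, 23.8 and 29.5 in let-7d 1 and 2, and 26.6 and 30.3 in let-7e 1 and 2. Its levels in series 2 were 35.2 and 29.2 CPM in controls 3 and 4, 33.1 and 27.5 in let-7d 3 and 4, and 37.8 and 31.8 in let-7e 3 and 4. The mimics lay above the controls in series 1, by 0.67 ± 0.16 with let-7d (edgeR adjusted p = 0.0143) and 0.75 ± 0.16 with let-7e (0.00965), and overlapped with them in series 2. These calls were lost without control 2 (0.105) or let-7d 2 (0.199) for let-7d and control 2 (0.0704) or let-7e 2 (0.0939) for let-7e. Usp18, the protease that removes ISG15, had 0.48 and 0.55 in series 1 and -0.44 and -0.06 in series 2, none called.

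The antiviral effectors made up 15 members. In series 1, 5 rose (4.59% of all genes) and 1 fell (6.28%) with let-7d, and 7 rose with let-7e (3.1%). In series 2, 2 fell with let-7d (5.26%) and 1 with let-7e (1.56%). In the controls 14 of 15 were higher in series 2 (35.2%). Ifit1, which recognises viral message caps, stood in series 1 at 74.1 and 33.3 CPM in controls 1 and 2, 79.7 and 97.3 in let-7d 1 and 2, and 84.0 and 96.0 in let-7e 1 and 2, with control 2 the lowest. For Ifit1 the series 2 levels were 319.5 and 242 CPM in controls 3 and 4, 179 and 207 in let-7d 3 and 4, and 301 and 236 in let-7e 3 and 4. The series 2 controls exceeded the series 1 controls by 2.36 ± 0.25 on the log2 scale (edgeR adjusted p = 6.93e-07). With let-7d the values were 0.70 ± 0.25 in series 1 and -0.54 ± 0.23 in series 2, neither called.

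Ifit3, of the same gene family as Ifit1, stood in series 1 at 59.5 and 25.8 CPM in controls 1 and 2. It stood at 59.0 and 104 in let-7d 1 and 2, and at 84.5 and 102 in let-7e 1 and 2. Ifit3 in series 2 stood at 266 and 174 CPM in controls 3 and 4, 144 and 155 in let-7d 3 and 4, and 247 and 179 in let-7e 3 and 4. The series 2 controls were higher by 2.34 ± 0.31 (edgeR adjusted p = 8.17e-06). In series 1 the let-7e libraries were above the controls by 1.09 ± 0.31 (edgeR adjusted p = 0.0465), a call lost without control 2 (0.242), let-7e 1 (0.13) or let-7e 2 (0.23). DESeq2 did not make that call (0.12). The let-7d value of 0.92 ± 0.31 did not pass, and let-7d 1 lay between the 2 controls.

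Ifit2, another member of that family, stood at 23.7 and 13.8 CPM in controls 1 and 2, 27.3 and 29.0 in let-7d 1 and 2, and 23.4 and 26.3 in let-7e 1 and 2. Ifit2 levels in series 2 were 77.2 and 63.7 CPM in controls 3 and 4, 60.0 and 65.1 in let-7d 3 and 4, and 67.7 and 61.1 in let-7e 3 and 4. The control difference between the series was 1.88 ± 0.16 (edgeR adjusted p = 8.03e-08), and no mimic effect was called. Counts of Ifit1 and Ifit3 are uncertain as far as reads of their near-identical copies were split or shared, because the counting of such reads is not given in the sources used here.

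Trim30a, a regulator of signalling from Toll-like receptors, had the smallest p of any member with each mimic in series 1. Its levels in series 1 were 57.8 and 47.7 CPM in controls 1 and 2, 84.4 and 114 in let-7d 1 and 2, and 102 and 115 in let-7e 1 and 2. Both mimics lay clear of the controls. The rise was 0.91 ± 0.13 with let-7d (edgeR adjusted p = 0.000817) and 1.03 ± 0.13 with let-7e (0.00048), and both calls held under all 10 alternatives tried. In series 2 Trim30a stood at 183 and 162 CPM in controls 3 and 4, 169 and 162 in let-7d 3 and 4, and 207 and 172 in let-7e 3 and 4. The groups overlapped there, with values of -0.06 ± 0.12 and 0.14 ± 0.12. The series 2 controls were 3.25-fold above those of series 1 (edgeR adjusted p = 3.12e-08).

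Ifi44, an interferon-induced protein of the cytoplasm, stood in series 1 at 33.6 and 22.7 CPM in controls 1 and 2, 39.7 and 55.7 in let-7d 1 and 2, and 47.5 and 67.3 in let-7e 1 and 2. Ifi44 in series 2 stood at 164 and 125 CPM in controls 3 and 4, 115 and 111 in let-7d 3 and 4, and 175 and 123 in let-7e 3 and 4. It was 5.05-fold higher in the series 2 controls (edgeR adjusted p = 2.16e-07), and the series did not overlap. In series 1 it rose by 0.75 ± 0.23 with let-7d (edgeR adjusted p = 0.047) and 1.00 ± 0.22 with let-7e (0.015). The calls were lost without control 2 (0.255), let-7d 1 (0.0517) or let-7d 2 (0.399) for let-7d and control 2 (0.103) or let-7e 2 (0.158) for let-7e. The let-7d call was also lost with RLE scaling (0.0508), DESeq2 (0.112) and limma-voom (0.067). Ifi35, a partner of the factor NMI, stood at 39.3 and 38.3 CPM in controls 1 and 2, 41.9 and 46.3 in let-7d 1 and 2, and 48.3 and 52.0 in let-7e 1 and 2. It rose with let-7e by 0.37 ± 0.08 (edgeR adjusted p = 0.0149), a call lost without control 2 (0.0572), let-7e 1 (0.0612) or let-7e 2 (0.142). In series 2 Ifi35 stood at 88.5 and 79.2 CPM in controls 3 and 4, 81.4 and 81.2 in let-7d 3 and 4, and 92.9 and 84.0 in let-7e 3 and 4, above every series 1 library, with the groups overlapping.

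Xaf1, a protein that promotes cell death, stood in series 1 at 32.4 and 25.7 CPM in controls 1 and 2, 38.8 and 46.9 in let-7d 1 and 2, and 44.4 and 44.9 in let-7e 1 and 2. Xaf1 in series 2 stood at 122 and 103 CPM in controls 3 and 4, 96.7 and 91.4 in let-7d 3 and 4, and 132 and 102 in let-7e 3 and 4. The control difference was 3.83-fold (edgeR adjusted p = 8.18e-09), the smallest p among members in that comparison. With the mimics in series 1 it rose by 0.56 ± 0.14 and 0.61 ± 0.14 (edgeR adjusted p = 0.0199 and 0.0159). Leaving out 1 library ended the call for control 2 (0.135) or let-7d 2 (0.233) with let-7d and for control 2 (0.102), let-7e 1 (0.0985) or let-7e 2 (0.0943) with let-7e.

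Mx1, a dynamin-like GTPase, was close to the limit of the counts. Mx1 in series 1 stood at 1.70 and 0.417 CPM in controls 1 and 2, 6.77 and 4.27 in let-7d 1 and 2, and 2.11 and 3.76 in let-7e 1 and 2. Mx1 in series 2 stood at 5.79 and 4.29 CPM in controls 3 and 4, 4.69 and 3.41 in let-7d 3 and 4, and 5.66 and 3.91 in let-7e 3 and 4. All 4 mimic libraries of series 1 lay above both controls, and the highest of the 12 libraries was let-7d 1. The let-7d rise was 2.21 ± 0.44 on the log2 scale (edgeR adjusted p = 0.00527), lost without let-7d 1 (0.0553). The let-7e value was 1.31 ± 0.47, not called. The control difference between series was 2.12 ± 0.43 (edgeR adjusted p = 0.000425).

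Oasl2, a relative of the oligoadenylate synthetases, stood in series 1 at 93.1 and 76.0 CPM in controls 1 and 2, 85.3 and 118 in let-7d 1 and 2, and 115 and 126 in let-7e 1 and 2. Oasl2 levels in series 2 were 199 and 179 CPM in controls 3 and 4, 131 and 136 in let-7d 3 and 4, and 183 and 152 in let-7e 3 and 4. With let-7d in series 2 both libraries lay below both controls and it fell by 0.50 ± 0.13 (edgeR adjusted p = 0.0252), a call lost when control 3 (0.102), control 4 (0.0605), let-7d 3 (0.158) or let-7d 4 (0.0562) was left out. With let-7e in series 1 it rose by 0.51 ± 0.13 (edgeR adjusted p = 0.0319), a call lost without control 2 (0.181), let-7e 1 (0.106) or let-7e 2 (0.198).

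Lgals3bp was the exception among the members. Lgals3bp in series 1 stood at 964 and 955 CPM in controls 1 and 2, 608 and 741 in let-7d 1 and 2, and 771 and 788 in let-7e 1 and 2. For Lgals3bp the series 2 levels were 502 and 453 CPM in controls 3 and 4, 316 and 308 in let-7d 3 and 4, and 374 and 326 in let-7e 3 and 4. Every mimic library lay below both controls of its series, and every series 2 library lay below every series 1 library. With let-7d it fell by 0.51 ± 0.09 in series 1 (edgeR adjusted p = 0.00308) and by 0.62 ± 0.09 in series 2 (0.00121). With let-7e the values were -0.30 ± 0.09 in series 1, not called, and -0.45 ± 0.09 in series 2 (edgeR adjusted p = 0.0175). The series 2 call with let-7d held under all 10 alternatives, while the series 1 call was lost without let-7d 1 (0.0617) and the let-7e call without control 3 (0.0992) or let-7e 4 (0.159).

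The effectors not given in full followed the same course in the controls, with Bst2 at 1.52, Samd9l at 1.56, Rtp4 at 1.12, Rsad2 at 1.03 and Cmpk2 at 1.02 on the log2 scale, all called. Rsad2, which encodes viperin, rose with let-7d in series 1 by 0.90 ± 0.27 (edgeR adjusted p = 0.0488), from 31.3 and 11.1 CPM in the controls to 37.9 and 43.8. Its call was kept under 3 of 10 alternatives, and was lost without control 2 (0.162), let-7d 1 (0.12) or let-7d 2 (0.266), and with RLE scaling (0.0518), a minimum of 1 CPM (0.0505), DESeq2 (0.146) and the 6 libraries alone (0.0574). Rtp4, a chaperone of membrane receptors, rose with let-7e in series 1 by 0.55 ± 0.14 (edgeR adjusted p = 0.0327). The Rtp4 call was lost without control 2 (0.16), let-7e 1 (0.133) or let-7e 2 (0.171). Bst2, Samd9l and Cmpk2 were not called with either mimic in either series.

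Of the ADP-ribosylation genes, Parp14, which modifies proteins with single ADP-ribose units, changed most with the mimics. Parp14 in series 1 stood at 87.4 and 66.5 CPM in controls 1 and 2, 103 and 115 in let-7d 1 and 2, and 106 and 105 in let-7e 1 and 2. Parp14 in series 2 stood at 96.7 and 90.1 CPM in controls 3 and 4, 70.5 and 76.4 in let-7d 3 and 4, and 102 and 91.7 in let-7e 3 and 4. Both mimics lay above the controls in series 1, by 0.49 ± 0.10 with let-7d (edgeR adjusted p = 0.00789) and 0.45 ± 0.10 with let-7e (0.018). In series 2 both let-7d libraries lay below the controls, at -0.35 ± 0.10, which did not pass the test. The series 1 calls were lost without control 2 (0.0564) or let-7d 2 (0.111) for let-7d and control 2 (0.104), let-7e 1 (0.128) or let-7e 2 (0.0973) for let-7e. The control difference between the series was small, 0.27 ± 0.10 (edgeR adjusted p = 0.0297), and was lost without control 2 (0.446) or control 3 (0.145).

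Dtx3l, a ubiquitin ligase that works in a complex with PARP9, stood in series 1 at 66.0 and 69.9 CPM in controls 1 and 2, 76.2 and 88.9 in let-7d 1 and 2, and 80.0 and 86.7 in let-7e 1 and 2. For Dtx3l the series 2 levels were 85.0 and 81.7 CPM in controls 3 and 4, 61.5 and 69.4 in let-7d 3 and 4, and 89.4 and 72.3 in let-7e 3 and 4. It fell with let-7d in series 2 by 0.35 ± 0.10 (edgeR adjusted p = 0.0419), a call lost without control 3 (0.118), control 4 (0.128) or let-7d 3 (0.306). It was also lost with the 6 libraries of series 2 alone (0.077). The series difference in the controls was 0.30 (edgeR adjusted p = 0.0166), lost without control 1 (0.0965) or control 3 (0.0737). Parp9 had no called mimic effect and was higher in the series 2 controls by 0.72 ± 0.10 (edgeR adjusted p = 1.2e-05). Dtx3l and Parp9 lie on opposite strands of chromosome 16 and share 458 exon bases, so reads there cannot be assigned without knowing whether strand was used.

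The interferon-inducible GTPases, which act on membranes of compartments that hold pathogens, were all 6 higher in the series 2 controls (35.2% of all genes). Irgm1, a regulator of the other immunity-related GTPases, had the largest such difference of any member. Irgm1 in series 1 stood at 89.9 and 56.1 CPM in controls 1 and 2, 79.1 and 96.0 in let-7d 1 and 2, and 90.6 and 104 in let-7e 1 and 2. For Irgm1 the series 2 levels were 419 and 373 CPM in controls 3 and 4, 264 and 273 in let-7d 3 and 4, and 441 and 328 in let-7e 3 and 4. The control difference was 2.43 ± 0.18, or 5.38-fold (edgeR adjusted p = 1.47e-08). In series 2 both let-7d libraries were below the controls and Irgm1 fell by 0.56 ± 0.17 (edgeR adjusted p = 0.0486). That call was lost when control 3 (0.156), control 4 (0.113), let-7d 3 (0.227) or let-7d 4 (0.101) was left out. It was also lost with a minimum of 1 CPM (0.0537) and with DESeq2 (0.156).

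Igtp, another GTPase of that family, stood in series 1 at 27.5 and 21.4 CPM in controls 1 and 2, 32.8 and 45.8 in let-7d 1 and 2, and 37.5 and 42.4 in let-7e 1 and 2. Igtp levels in series 2 were 62.8 and 56.9 CPM in controls 3 and 4, 47.1 and 46.1 in let-7d 3 and 4, and 69.9 and 53.2 in let-7e 3 and 4. All mimic libraries of series 1 were above the controls, by 0.69 ± 0.16 with let-7d (edgeR adjusted p = 0.0137) and 0.69 ± 0.16 with let-7e (0.0168). These calls were lost without control 2 (0.099) or let-7d 2 (0.238) for let-7d and control 2 (0.109), let-7e 1 (0.0661) or let-7e 2 (0.137) for let-7e. Iigp1 and Gbp7 were called with let-7e in series 1, at 0.69 and 0.60 (edgeR adjusted p = 0.032 and 0.0403). Both calls were lost without control 2 (0.185 and 0.226), let-7e 1 (0.142 and 0.179) or let-7e 2 (0.156 and 0.166). Neither was called by DESeq2 (0.0757 and 0.0846). Gbp2 and Gbp3, guanylate-binding proteins, were called with neither mimic. The Gbp genes form a family with close copies, so reads shared between copies make their counts uncertain.

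The 3 antigen processing genes did not all differ between the controls of the 2 series. Psmb9, a catalytic subunit of the immunoproteasome, stood in series 1 at 22.4 and 23.02 CPM in controls 1 and 2, 30.2 and 35.4 in let-7d 1 and 2, and 29.0 and 30.9 in let-7e 1 and 2. Psmb9 in series 2 stood at 26.6 and 20.4 CPM in controls 3 and 4, 26.3 and 24.2 in let-7d 3 and 4, and 29.6 and 25.5 in let-7e 3 and 4. In series 1 the mimics lay above both controls, by 0.54 ± 0.12 with let-7d (edgeR adjusted p = 0.0125) and by 0.40 ± 0.12 with let-7e, the latter not called. The let-7d call was lost without control 1 (0.0684) or let-7d 2 (0.172). Tap1, which carries peptides into the endoplasmic reticulum, rose by 0.36 and 0.42 in series 1 (edgeR adjusted p = 0.0437 and 0.0287). The let-7d call of Tap1 was lost with RLE scaling (0.0533) and limma-voom (0.0533). These Tap1 calls were lost without control 1 (0.0668), control 2 (0.202) or let-7d 2 (0.477) for let-7d and control 2 (0.132), let-7e 1 (0.0985) or let-7e 2 (0.194) for let-7e. In the controls Psmb9 and Tap1 had series differences of 0.05 and -0.08, neither called, while Psmb8 was higher by 0.64 ± 0.12 (edgeR adjusted p = 0.000259). Psmb9 and Tap1 share 212 exon bases on opposite strands of chromosome 17.

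**Figure D4:**
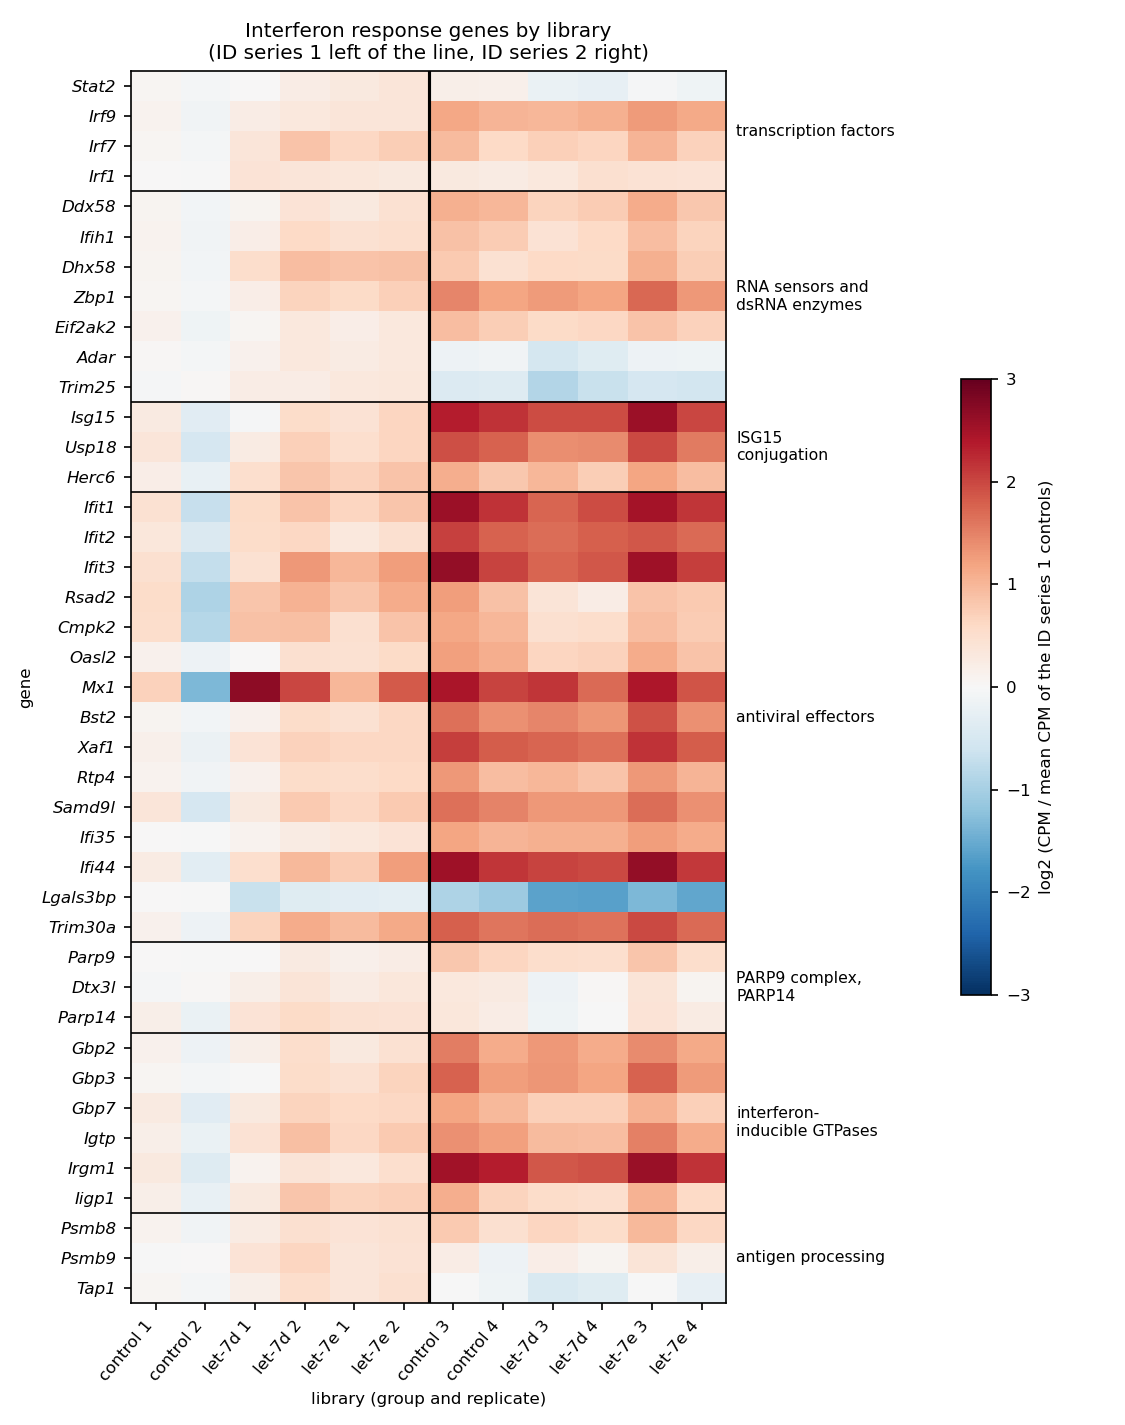
Log2 ratio of each gene's CPM in each library to its mean CPM in the 2 series 1 controls, from blue (lower) to red (higher), with the genes in rows by role and the 12 libraries in columns. Series 2 on the right is red for most effectors and GTPases, control 2 is the palest or bluest column of series 1 for most genes, and Lgals3bp is blue in series 2.

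The difference between the series in the mimic effect was tested itself. For let-7d the log2 fold change, with its sign, was lower in series 2 than in series 1 for all 41 members. The median difference was -0.72 on the log2 scale, against -0.02 over all genes. Of the members, 3 were called lower (0.178% of all genes) and none higher (0.0635%), 0.241% of all genes in either direction. At an unadjusted p under 0.05 there were 38, a cutoff to which these shares of all genes do not apply. The 3 called were Trim25 at -0.59 ± 0.10 (edgeR adjusted p = 0.0313), Parp14 at -0.84 ± 0.15 (0.0449) and Trim30a at -0.97 ± 0.18 (0.0479). Without 1 library, Trim25 was lost for let-7d 1 (0.068), let-7d 2 (0.21) or let-7d 3 (0.134), Parp14 for let-7d 1 (0.0533), let-7d 2 (0.226), control 3 (0.0729) or let-7d 3 (0.162) and Trim30a for control 2 (0.0869), let-7d 2 (0.247), control 3 (0.0808) or let-7d 3 (0.161). Trim30a was also lost with RLE scaling (0.0524), a minimum of 1 CPM (0.0556) and limma-voom (0.064). The count was 20 without control 1, 6 without let-7d 1, 5 without let-7d 4, 1 without control 3 and 0 without let-7d 2 or let-7d 3. DESeq2 called 13. For Lgals3bp the difference was -0.11 ± 0.13, the smallest of the 41 in size.

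For let-7e the log2 fold change was also lower in series 2 for all 41 members, with a median difference of -0.50 against 0.00 over all genes. No member was called by edgeR (0.00635% of all genes were called lower and 0% higher), limma-voom called 0 and DESeq2 called 4. At an unadjusted p under 0.05 there were 30. No share of all genes is given for that cutoff or for the other methods. Trim30a had -0.90 ± 0.18 (edgeR adjusted p = 0.119) and Trim25 had -0.44 ± 0.10 (0.129). Without control 1 the count was 11. Since the 41 genes vary together and the mimics share controls, the number of members on a side is not a number of independent results.

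With both series in a single fit, in which the mimic effect is taken to be the same in each, few members were called. With let-7d, 2 were higher (6.41% of all genes) and 1 was lower (9.81%), where 16.2% of all genes were called. Irf1 was higher by 0.25 ± 0.06 (edgeR adjusted p = 0.0113) and Psmb9 by 0.31 ± 0.10 (0.0403), while Lgals3bp fell by 0.56 ± 0.07 (4.88e-05). The Psmb9 call was lost without control 1 (0.128), control 2 (0.0782), let-7d 1 (0.0737), let-7d 2 (0.149), control 4 (0.103) or let-7d 3 (0.0553), each left out in turn, or with the 8 libraries alone (0.0789), and the count was 6 without control 3. The member median was 0.06 against 0.00 over all genes.

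With let-7e, 5 were higher (3.81% of all genes) and 1 was lower (5.69%), where 9.5% of all genes were called. Dhx58 was higher by 0.54 ± 0.13 (edgeR adjusted p = 0.0182) and Trim30a by 0.53 ± 0.16 (0.0461). Zbp1 had 0.40 (edgeR adjusted p = 0.0498), Irf9 0.23 (0.0457) and Irf1 0.23 (0.0243). Lgals3bp fell by 0.37 ± 0.07 (edgeR adjusted p = 0.00211). The Zbp1 call was lost with RLE scaling (0.0513), a minimum of 1 CPM (0.0513) and limma-voom (0.0514), that of Trim30a with DESeq2 (0.0807) and the replicate block (0.0601), and that of Irf9 with the replicate block (0.0585) and the 8 libraries alone (0.051). The count was 1 without control 1, let-7e 1, let-7e 2 or let-7e 3, 2 without control 2 and 16 without control 3. Lgals3bp was the member whose call held for each library left out with both mimics, and Irf1 with let-7d did so too. The member median was 0.23 against 0.00 over all genes.

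Between the 2 mimics no member was called. Over all genes 0.0952% were higher and 0.0571% were lower with let-7e, 24 genes or 0.152% in all. By edgeR 3 members had an unadjusted p under 0.05, a cutoff to which these shares do not apply, and DESeq2 and limma-voom called 0. The member values ran from -0.32 to 0.33 with a median of 0.17 and a median SE of 0.13. The largest difference by p was that of Lgals3bp, 0.19 ± 0.07 (edgeR adjusted p = 0.381). A p that misses the threshold does not show that the mimics act alike on these genes.

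The members moved together from library to library, also between replicates of a group. Control 1 was above control 2 for 38 of 41 members, by a median of 0.26 on the log2 scale, while 50.4% of all genes were higher in control 1. Control 3 was above control 4 for 39, let-7e 3 above let-7e 4 for 40, let-7d 2 above let-7d 1 for 39 and let-7e 2 above let-7e 1 for 38. Only let-7d 3 and let-7d 4 were near an even split, 23 against 18. After removing the mean of each group in each series, each gene's correlation with the mean of the other 40 had a median of 0.88, and 31 of 41 were over 0.8. That is a description over 12 libraries and 6 independent replicate differences. The genes least like the rest were Trim25 at -0.19, Irf1 at 0.07, Adar at 0.48 and Dtx3l at 0.50.

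The replicate spread was thus of the order of some mimic effects. Relative to the control mean of its own series, the median member stood at 0.13 and -0.13 in controls 1 and 2, at 0.25 and 0.59 in let-7d 1 and 2 and at 0.47 and 0.59 in let-7e 1 and 2. In series 2 it stood at 0.09 and -0.09 in controls 3 and 4, at -0.29 and -0.27 in let-7d 3 and 4, and at 0.15 and -0.18 in let-7e 3 and 4. The mimic libraries were all above the controls by this measure in series 1. In series 2 both let-7d libraries were below them, and the let-7e libraries lay on either side.

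Cell type markers also moved within the series. In series 1 the summed level of the macrophage markers was 341 to 362 CPM with let-7d and 261 to 393 with let-7e, against 374 to 376 in the controls, and 2 of 17 were called lower with each mimic (6.28% of all genes with let-7d and 4.02% with let-7e). Of the 7 preadipocyte and fibroblast markers, Pdgfra rose by 0.33 and 0.26 with let-7d and let-7e (edgeR adjusted p = 0.0104 and 0.0423) and Ly6a, which interferon also induces, by 0.65 and 0.81 (0.0459 and 0.0232). Thy1 fell, at -0.61 and -0.70 (edgeR adjusted p = 0.00121 and 0.000636). Their summed level was 877 to 951 CPM with let-7d and 911 to 919 with let-7e, above both series 1 controls. No adipocyte, endothelial or mesothelial marker was called with a mimic in series 1. Within series 2 the macrophage sum was 70.0 to 159 CPM with let-7d, 54.2 to 82.9 with let-7e and 31.9 to 43.7 in the controls. With let-7d in series 2, 8 of 17 markers were called higher, with a median log2 fold change of 1.85 (3.29% of all genes were called higher), where 7 members were called lower. In that comparison 3 of 9 adipocyte markers were called lower (5.26% of all genes), Plin1 at -0.38, Cidec at -0.45 and Lipe at -0.86 (edgeR adjusted p = 0.0468, 0.0095 and 0.000219). Pecam1 among the endothelial markers rose by 0.58, and Pdgfra and Dpp4 rose by 0.29 and 0.63 (edgeR adjusted p = 0.0171, 0.0218 and 0.0192). The summed preadipocyte and fibroblast markers stood at 1298 to 1517 CPM with let-7d and 1231 to 1334 with let-7e. With let-7e in series 2 no marker of these 5 lists was called. Let-7d 3 had the highest summed macrophage markers of series 2. The part of these cell types in the members' values was not tested.

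**Figure D5:**
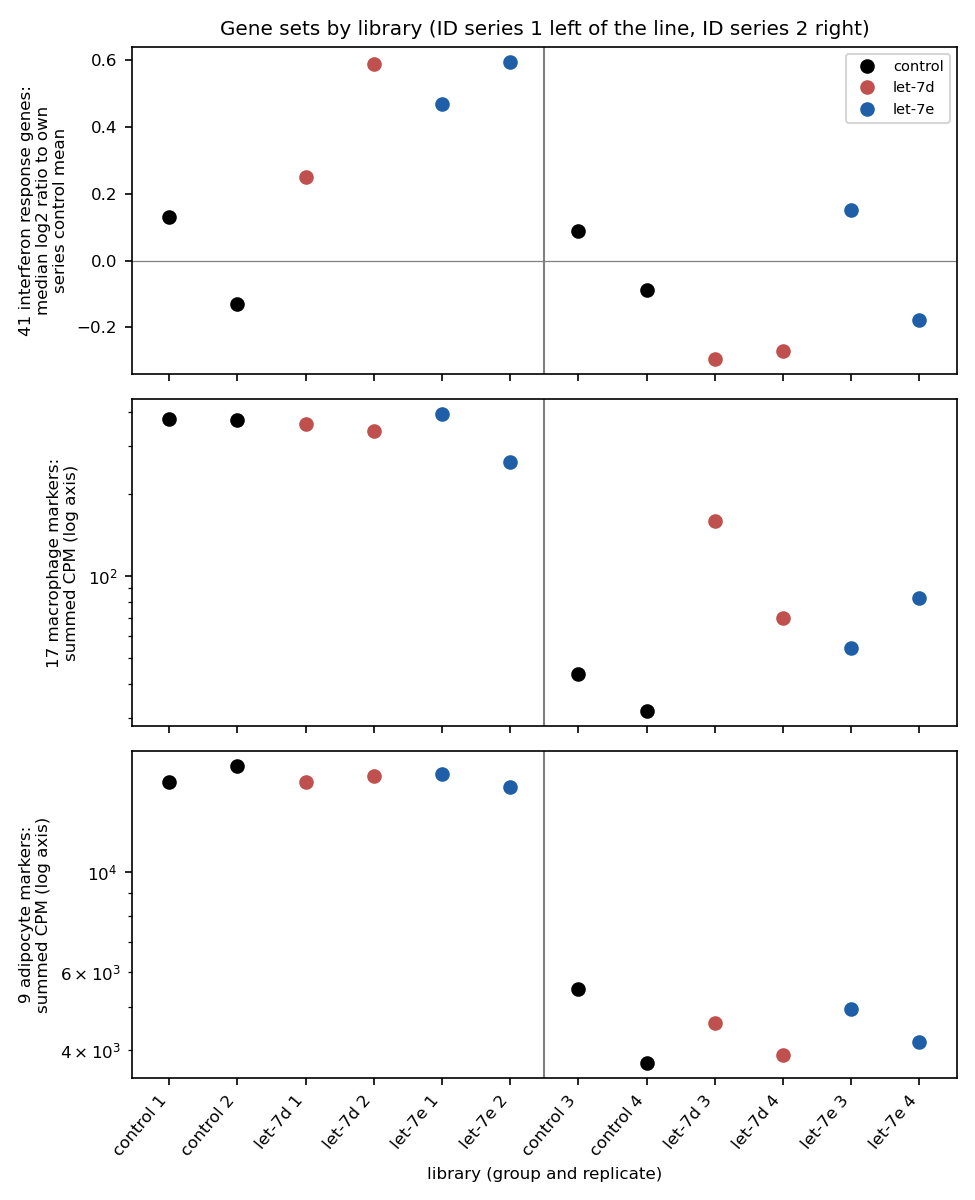
Top, median log2 ratio of the 41 interferon response genes to the control mean of their own series in each of the 12 libraries. Middle and bottom, summed CPM of 17 macrophage and 9 adipocyte markers on log axes; macrophage markers run from 31.9 to 393 CPM and adipocyte markers from 3749 to 17304, both lower in series 2.

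Other genes of the interferon pathway were followed as lists by function. Of the 9 receptor and kinase genes in the table, let-7d raised 4 (6.41% of all genes) and lowered 1 (9.81%) in the fit of both series, and let-7e raised 3 (3.81%). Ifnar2, a chain of the type I interferon receptor, rose by 0.29 ± 0.07 with let-7d (edgeR adjusted p = 0.00856) and 0.25 ± 0.07 with let-7e (0.0302). Ifnar2 in series 1 stood at 76.0 and 73.0 CPM in controls 1 and 2, 88.4 and 84.5 in let-7d 1 and 2, and 85.3 and 83.1 in let-7e 1 and 2. Ifnar2 in series 2 stood at 103 and 83.3 CPM in controls 3 and 4, 130.3 and 110.5 in let-7d 3 and 4, and 120.1 and 113 in let-7e 3 and 4. Within series 1 each mimic had 1 called gene of this list (10.9% of all genes with let-7d and 7.12% with let-7e), and within series 2 let-7d had 1 (8.56%) and let-7e had 0 (2.48%). Between the controls 6 were higher (35.2%) and 1 lower (33.8%) in series 2.

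Of 7 other transcription factors, 1 was higher with each mimic in both series together (6.41% of all genes with let-7d and 3.81% with let-7e), Irf2, at 0.26 with let-7d and 0.25 with let-7e (edgeR adjusted p = 0.0149 and 0.031). In series 1, 2 were higher with each mimic (4.59% and 3.1%), among them Nlrc5, the activator of class I genes, at 0.49 ± 0.10 with let-7d (edgeR adjusted p = 0.00547). In the series 2 controls 6 of 7 were lower (33.8% of all genes) and 0 higher (35.2%).

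Of 16 sensing genes outside the members, 2 were higher (6.41% of all genes) and 1 lower (9.81%) with let-7d in both series together, and 3 were higher (3.81%) and 1 lower (5.69%) with let-7e. Traf6, an adaptor below Toll-like receptors, rose by 0.30 ± 0.06 with let-7d (edgeR adjusted p = 0.00442) and 0.25 ± 0.06 with let-7e (0.0187). Tmem173, which encodes STING, the adaptor of cytosolic DNA sensing, fell by 0.32 ± 0.07 with let-7d and by 0.22 ± 0.07 with let-7e (edgeR adjusted p = 0.00441 and 0.0471). In the controls 5 were higher (35.2%) and 5 lower (33.8%) in series 2, shares of the list near those of all genes, with Tlr3, a sensor of double-stranded RNA, at 1.11 and Tlr7 at -3.11 (edgeR adjusted p = 1.03e-05 and 1.78e-05). The list of inhibitors had 7 genes in the table, among them Isg20, which is itself an interferon-stimulated gene. Of these, Socs3, which blocks JAK kinases, was higher with each mimic in both series together and in each series. With let-7d and let-7e it rose by 0.30 and 0.29 in series 1 and 0.45 and 0.34 in series 2 (edgeR adjusted p = 0.03, 0.0406, 0.00255 and 0.0247). It was the only gene of this list called with a mimic in these comparisons.

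Of 40 further interferon-stimulated genes in the table, 15 were higher (4.59% of all genes) and 0 lower (6.28%) with let-7d in series 1, and 14 were higher (3.1%) and 0 lower (4.02%) with let-7e. In series 2, 1 was higher (3.29%) and 2 were lower (5.26%) with let-7d, and 1 was higher with let-7e (0.914%). The difference between the series was not tested for this list. Gbp5 rose by 1.27 ± 0.19 with let-7d in series 1 (edgeR adjusted p = 0.000747), and Oas2, an oligoadenylate synthetase, by 0.80 ± 0.13 with let-7e (0.00174). Uba7, the enzyme that activates ISG15, rose by 0.63 with let-7d and 0.60 with let-7e in series 1 (edgeR adjusted p = 0.00205 and 0.00341). Oas2 in series 1 stood at 25.8 and 22.4 CPM in controls 1 and 2, 31.0 and 43.5 in let-7d 1 and 2, and 42.4 and 42.2 in let-7e 1 and 2. Oas2 levels in series 2 were 38.8 and 37.7 CPM in controls 3 and 4, 30.4 and 31.7 in let-7d 3 and 4, and 35.9 and 30.9 in let-7e 3 and 4. Parp12 fell by 0.44 ± 0.08 with let-7d in series 2 (edgeR adjusted p = 0.00441). The chemokine Cxcl9 was the gene higher with let-7e in series 2, by 1.47 ± 0.36 (edgeR adjusted p = 0.0432). In the controls 30 of 40 were higher (35.2%) and 5 lower (33.8%) in series 2.

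Of 10 class I presentation genes, 5 rose with each mimic in series 1 (4.59% of all genes with let-7d and 3.1% with let-7e), and 0 in series 2 (3.29% and 0.914%), a difference not tested itself. B2m, the light chain of class I molecules, rose in series 1 by 0.66 ± 0.13 with let-7d (edgeR adjusted p = 0.00402) and 0.59 ± 0.13 with let-7e (0.0116). Tap2, the partner of TAP1, rose by 0.49 ± 0.09 and 0.54 ± 0.08 (edgeR adjusted p = 0.00231 and 0.0016). In both series together 4 were higher with let-7d (6.41%) and 6 with let-7e (3.81%). H2-D1, a heavy chain, was higher by 0.32 and 0.34 (edgeR adjusted p = 0.00615 and 0.00648). No set test was made on these lists.

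A match to the let-7 seed, CTACCTC, was looked for in the longest annotated 3′ UTR (GENCODE vM21, GRCm38) of each member. It was present in 5 of 41 members (12.2%), near the share of all genes with a 3′ UTR, 1427 of 13547 (10.5%). The sites are shown with 12 bases before and 5 after, the seed match in capitals, because both mimics carry this seed.
Stat2: gccatgccgtctCTACCTCcccca
Trim25: ggagaagcatatCTACCTCctcat
Oasl2: tcttacgcctccCTACCTCatccc
Gbp7: attgataaacttCTACCTCcagtg
Parp14, first site: ggacggtgcccgCTACCTCtccag
Parp14, second site: ctggtgtccactCTACCTCttatt
Of these genes, Stat2, Trim25 and Oasl2 were among the 7 members called lower with let-7d in series 2 (5.26% of all genes). In series 1 Trim25 and Parp14 were called higher with both mimics, and Stat2, Oasl2 and Gbp7 with let-7e. Over all genes 4.59% were called higher with let-7d there and 3.1% with let-7e. Lgals3bp, the member that was lower in all 4 comparisons, had no match in its 267 bases of 3′ UTR. A match of letters is not a measured target site, and the part of the sites in these values was not tested.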

How the data were processed

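The authors deposited raw counts, whole numbers for each Ensembl gene in each library. Per the submitters' processing notes, STAR and GRCm38.p6 were used. The version of STAR, the counting program, whether it used strand and how it handled reads with several matches were all not given in the sources used here, so reads of overlapping or antisense genes and of near-identical copies cannot be told apart. The authors had removed genes of low CPM, per the name of the table, and the lowest maximum CPM left is 0.456. An RPKM table that the authors also deposited was not used, since for a typical gene the length it implies varied 69.0-fold from library to library.

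Symbols, coordinates and exon lengths came from GENCODE vM21 (GRCm38), and 15736 of 15754 identifiers had a symbol. Counts were scaled by TMM and tested with edgeR 4.0.16 (R 4.3.3), quasi-likelihood, with 1 common estimate of the spread from all 12 libraries. A fit with group and series as terms (8 residual degrees of freedom) gave the comparisons over both series, and a fit with a mean per group and series (6 residual degrees of freedom) gave those within a series and between series. The function filterByExpr removed no gene. P-values are two-sided and adjusted after Benjamini and Hochberg over all genes, and SE is the absolute log2 fold change divided by the square root of F. The scripts were tested on simulated data. The 41 genes lie in 7 roles.

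The members, the gene lists and the tests were chosen with earlier results of these data known. Library values were given for members called against control or between series, at most 8 per comparison and direction by smallest p, and for the 8 largest differences each way between the controls of the series. Of other pathway genes, the called ones with the smallest p, at most 6 per comparison, could be named. Irf2, Nlrc5, Tlr3, Tlr7 and the members Ifih1, Ddx58, Eif2ak2, Rsad2, Rtp4, Usp18, Tap1, Iigp1, Gbp7 and Parp9 and the cell type markers called were named after their values were seen. The lists were the receptors and kinases, other factors, sensing genes, inhibitors, further interferon-stimulated genes, class I presentation and ligands, and markers of adipocytes, macrophages, endothelial cells, preadipocytes and fibroblasts, mesothelial cells, lymphocytes and plasmacytoid dendritic cells.

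Alternatives were RLE scaling, a minimum of 1 CPM in 4 libraries, no filter, DESeq2 1.42.0 and limma-voom (limma 3.58.1). Others were the libraries compared alone, no series term and the replicate number as a block. Each library of the groups compared was also left out in turn. The design text gives another number of replicates than the 4 libraries per group listed, and these 4 were used. Replicates differed by more than counting noise in every pair (chi-square divided by its degrees of freedom, 2.31 to 9.92). The median SE over all genes was 0.12 on the log2 scale for let-7d in series 1.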

Additional observations from a re-analysis of the deposited data

Results flagged for a closer look

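In 3 of the 123 groups of 4 libraries examined (41 genes in 3 groups), 1 library lay apart from the other 3. The rule gives about 1 in 20 by chance for 4 like libraries, and 3 of 123 is below that. Each group here spans both series, which differ in level, so that rate does not carry over. Dhx58 stood at 38.5 CPM in let-7d 2 against 29.5 to 30.8 in the other let-7d libraries. Gbp7 stood at 42.5 CPM in let-7d 1 against 55.4 to 57.1, and Igtp at 32.8 CPM in let-7d 1 against 45.8 to 47.1. All 3 are let-7d libraries of series 1.

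For 3 genes the let-7d effect differed between the series by the test of that difference. The effect in series 2 minus that in series 1 was -0.59 on the log2 scale for Trim25 (edgeR adjusted p = 0.0313), -0.84 for Parp14 (edgeR adjusted p = 0.0449) and -0.97 for Trim30a (edgeR adjusted p = 0.0479). Under 13 alternatives the call was lost 3 times for Trim25, 4 times for Parp14 and 7 times for Trim30a, by leaving out 1 library and, for Trim30a, also with RLE scaling, a minimum of 1 CPM and limma-voom. What separates the series cannot be told from the labels.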

How the results depend on the processing

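Counts of members called rested on few libraries. Each library of the groups compared was left out in turn, and the count with all libraries is in parentheses. Over both series this gave 2 to 6 members with let-7d (3) and 1 to 16 with let-7e (6). In series 1 it gave 4 to 23 with let-7d (17) and 2 to 27 with let-7e (21). In series 2 it gave 2 to 5 with let-7d (7) and 0 to 1 with let-7e (1). For the difference between series it gave 0 to 20 with let-7d (3) and 0 to 11 with let-7e (0). For the control libraries it gave 35 to 37 (37). With no series term, 0 members were called with let-7d and 0 with let-7e over both series. DESeq2 called 13 for the let-7d difference between series and 4 for the let-7e difference. All these counts under alternatives are given without the share of all genes called at the same setting. Of 976 values of called genes under an alternative, 780 kept their call, 196 lost it and 0 reversed. In the comparison of the control libraries calls were lost only for Dtx3l and Parp14, so nearly all losses lay in the mimic comparisons. The cause was not tested, beyond the smaller number of libraries when 1 is left out.

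Whether same-numbered libraries share a culture or animal is not in the labels. Over all genes, the deviations of same-numbered libraries of a series had correlations from -0.06 to 0.17. With 2 libraries per group and series, these values do not decide whether the libraries are paired. With the replicate number as a block, 3 members were called with let-7d, 5 with let-7e and 0 between the mimics.

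With 2 libraries per group and series, the median SE of the members was 0.14 to 0.15 on the log2 scale within a series. Mx1 had 6 to 190 counts per library.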
